A study of Arabidopsis thaliana with 24 samples.

Results

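DEAD-box RNA helicases of Arabidopsis thaliana are described here through the DMS reactivity of their own transcripts. They were chosen by locus, as 10 listed genes: LOS4 (AT3G53110), STRS1 (AT1G31970), STRS2 (AT5G08620), RCF1 (AT1G20920), RH6 (AT2G45810), RH8 (AT4G00660), RH12 (AT3G61240), PRH75 (also called RH7, AT5G62190), RH3 (AT5G26742) and RH20 (AT1G55150). The deposited table held 9 of the 10, with 13 transcript isoforms, among 8956 loci and 12978 transcripts in all. RH8 was not analysed here. DEAD-box proteins use ATP to open short RNA duplexes or to strip proteins from RNA, and are named after a conserved run of amino acids in their ATP-binding core. In plants they act from transcription and splicing through export, translation and decay to ribosome assembly in the nucleolus, chloroplasts and mitochondria. Several of the listed genes are known from mutants with an altered response to cold, salt or osmotic stress.

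Plants were Col-0 wild type, labelled as 24 days old, grown on plates for 10 days and then in hydroponic culture. The conditions compared were roots and shoots of plants given 100 mM NaCl for 48 h, and roots and shoots of control plants left in the original solution. Excised tissue from 40 plants per library was soaked in 0.75% dimethyl sulfate (DMS), which methylates unpaired adenines and cytosines, for 5 min, or in buffer alone. Each condition rests on 3 libraries with DMS and 3 without, which the authors had combined into 1 value per transcript before deposit. The spread between replicates and the read depth are therefore unknown, no test could be run, and every difference below is a description. Reactivity is the authors' score, a mean over the bases of a transcript, and higher values stand for bases more open to DMS. The Gini index is a fraction that is 0 for reactivity spread evenly along a transcript and approaches 1 when few bases hold it. A transcript's abundance is not part of the table, and all 4 photosynthesis genes and all 4 root genes set as tissue markers were present with a reactivity, so tissue identity could not be checked by level. Values are those of the lowest-numbered isoform of each locus unless isoforms are named.

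RH3 had the most reactive transcript of the 9 helicases in every condition, and it was the one whose mean reactivity was higher in roots than in shoots. The other 8 were less reactive in roots, as were 92.6% of all loci in control plants. No helicase transcript differed between salt and control by as much as 0.32 on the log2 scale in either tissue. Few loci differed by that much: in roots 2.51% did so upward and 1.06% downward, and in shoots 0.614% upward and 2.09% downward. With salt the Gini index was higher for all 9 transcripts in shoots, against 73.4% of all loci. The size was ordinary there, with a median difference of 0.014 for the 9 and 0.013 for all loci. In roots it was higher for 8 of 9, LOS4 being the exception, against 66.1% of all loci. The median difference in roots was 0.023 for the 9 and 0.0081 for all loci.

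The cytosolic helicases RH6 and RH12 are relatives of yeast Dhh1 and occur in the granules where untranslated mRNA is stored or decapped. RH6 had a mean reactivity of 0.223 in salt-treated roots, 0.230 in control roots, 0.267 in salt-treated shoots and 0.265 in control shoots. RH12 lay lower in all 4 conditions, at 0.175 in salt-treated roots, 0.167 in control roots, 0.245 in salt-treated shoots and 0.250 in control shoots. In control roots RH6 was thus above 73.4% of all loci and RH12 above only 20.0%. These relatives lay closer together in shoots, though RH6 still ranked higher. RH6 and RH12 were above 41.6% and 27.3% of loci in control shoots, and above 50.4% and 32.8% in salt-treated shoots. RH6, RH8 and RH12 are similar genes, so reads may have been shared between them, which leaves their values uncertain.

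STRS1 and STRS2 are nuclear helicases whose loss makes plants more tolerant of salt, heat and osmotic stress. STRS1 had a mean reactivity of 0.288 in salt-treated roots, 0.266 in control roots, 0.337 in salt-treated shoots and 0.326 in control shoots. STRS2 had 0.202 in salt-treated roots, 0.188 in control roots, 0.248 in salt-treated shoots and 0.245 in control shoots. Both were higher with salt in both tissues, as was RCF1. The log2 ratios in shoots were only 0.04 for STRS1, 0.02 for STRS2 and 0.01 for RCF1. Of all loci, 80.1% were higher with salt in roots and 37.3% in shoots. Only 48.4% of loci were higher in roots and lower in shoots, so being higher in both tissues was not rare. STRS1 was above STRS2 in each condition. Their Gini indices were in the opposite order, at 0.607 for STRS1 and 0.727 for STRS2 in salt-treated roots.

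Among the helicases of the nucleus, LOS4 exports mRNA through the nuclear pore, RCF1 takes part in pre-mRNA splicing, including that of cold-response genes, and PRH75 serves ribosomal RNA maturation. LOS4 had a mean reactivity of 0.219 in salt-treated roots, 0.215 in control roots, 0.298 in salt-treated shoots and 0.321 in control shoots. RCF1 had 0.268 in salt-treated roots, 0.239 in control roots, 0.334 in salt-treated shoots and 0.331 in control shoots. PRH75 had 0.247 in salt-treated roots, 0.227 in control roots, 0.3202 in salt-treated shoots and 0.345 in control shoots. All 3 were above the median of all loci in each condition. PRH75 was also the most evenly reactive of the 9 in roots, with a Gini index of 0.550 with salt and 0.513 without. Only 1.31% of all loci had a lower Gini index in control roots.

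RH20, a relative of yeast Dbp2, had a mean reactivity of 0.198 in salt-treated roots, 0.199 in control roots, 0.239 in salt-treated shoots and 0.251 in control shoots. RH3 works in the chloroplast, where it assists intron splicing and assembly of the large ribosomal subunit. It had a mean reactivity of 0.422 in salt-treated roots, 0.4375 in control roots, 0.345 in salt-treated shoots and 0.358 in control shoots. RH3 thus exceeded 97.8% of all loci in control roots and 94.6% in control shoots. The median of the 9 helicases was 0.223 in salt-treated roots, 0.227 in control roots, 0.298 in salt-treated shoots and 0.321 in control shoots. The corresponding medians over all loci were 0.210 and 0.198 in roots with and without salt, and 0.266 and 0.273 in shoots with and without salt.

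**Figure D1:**
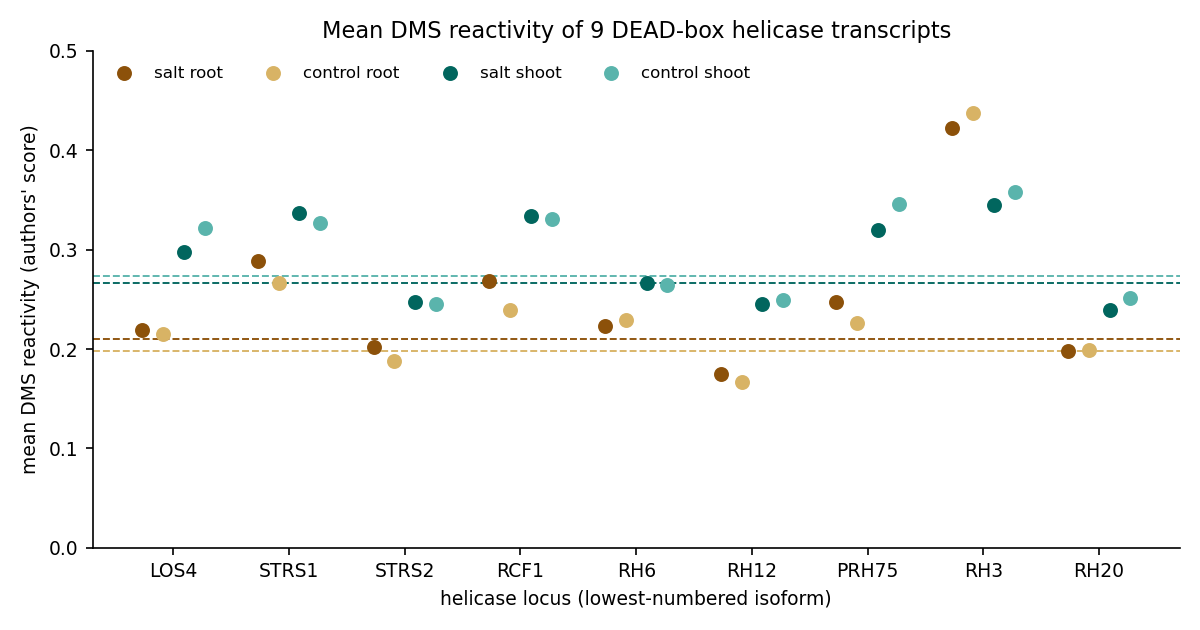
Mean DMS reactivity (the authors' score, vertical axis) of 9 helicase loci (horizontal axis) in 4 conditions, 1 deposited value per point; dashed lines are the medians of all 8956 loci in the same colours. RH3 alone has its root points, 0.422 with salt and 0.4375 without, above its shoot points.

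Ordered by mean reactivity, control shoots had an upper set of RH3, PRH75, RCF1, STRS1 and LOS4, between 0.358 and 0.321, and a lower set of RH6, RH20, RH12 and STRS2, between 0.265 and 0.245. Control roots had the order RH3, STRS1, RCF1, RH6, PRH75, LOS4, RH20, STRS2 and RH12. Below RH3 that order ran from 0.266 to 0.167 in small steps. Without replicate values it cannot be said which neighbours differ beyond their spread. In control shoots mean reactivity and Gini index ran in nearly opposite order over all loci (Spearman's rho -0.993, across loci that share the same libraries). Ranks by mean and by Gini index in control shoots thus carry nearly the same information. The relation was weaker in salt-treated shoots (rho -0.79) and loose in control roots (rho -0.22) and salt-treated roots (rho -0.28). Why control shoots stood apart was not tested. In control roots RH3 had both the highest mean and the highest Gini index of the 9.

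Between roots and shoots without salt, 8 of 9 helicases had the lower mean reactivity in roots, and 92.6% of all loci did too. The median log2 ratio of root over shoot was -0.38 for the 9 helicases and -0.45 for all 8954 loci compared. PRH75 had the lowest ratio, -0.61, and was the 1 helicase lower by at least 1.5-fold, a limit that 25.3% of loci passed in that direction. RH12 at -0.58 and LOS4 at -0.58 stopped just short of it. RCF1 stood at -0.47, STRS2 at -0.38, RH20 at -0.33, STRS1 at -0.29 and RH6 at -0.20. A smaller limit, a log2 ratio of -0.32 or less, was passed by 6 helicases and by 73.8% of loci. Relative to the median of all loci, the ratios of STRS1, STRS2, RH6 and RH20 lay above by 0.07 to 0.25, and those of LOS4, RCF1, RH12 and PRH75 lay below by 0.02 to 0.15.

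RH3 had a log2 ratio of 0.29, 1.22 times its shoot reactivity, and lay 0.74 above the median of all loci. Only 7.44% of loci had a ratio above 0, and 2.38% had one of 0.32 or more, which no helicase did. RH3 was more than 1.5-fold above the median ratio, as 4.84% of loci were. Its reactivity was also far less even in roots. The Gini index of RH3 was 0.749 in salt-treated roots and 0.714 in control roots, against 0.554 in salt-treated shoots and 0.544 in control shoots. Its most reactive base reached 3.108 in salt-treated roots and 3.334 in control roots, against 1.511 in salt-treated shoots and 1.626 in control shoots. The highest base of the other 8 helicases lay between 1.059 and 1.739 in control roots and between 1.554 and 2.133 in control shoots. The SD between the bases of RH3 was 1.48 times its mean in control roots and 0.989 times in control shoots.

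A higher mean with a higher Gini index is what loci on that side of 0 showed as a rule: of the 666 loci more reactive in control roots than in control shoots, 642 (96.4%) also had the higher Gini index there. Loci with both made up 7.17% of all loci. The photosynthesis genes among the tissue markers had Gini differences of root minus shoot from 0.253 for RBCS1A to 0.333 for LHCB6, although their log2 ratios of mean reactivity differed, at 0.75 for LHCB6, 0.18 for CAB1, 0.02 for RBCS1A and -0.29 for PSBR. The Gini differences of the root genes PYK10, NAI2 and PBP1 were -0.143, -0.118 and -0.142 and that of the root gene AMT1;1 was 0.084. RH3 had a difference of 0.170 on this scale, above 97.9% of loci. The other 8 helicases ranged from -0.052 for PRH75 to 0.023 for RCF1. Whether transcript abundance or read depth in roots moved with the values of RH3 was not tested, since neither is in the table.

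**Figure D2:**
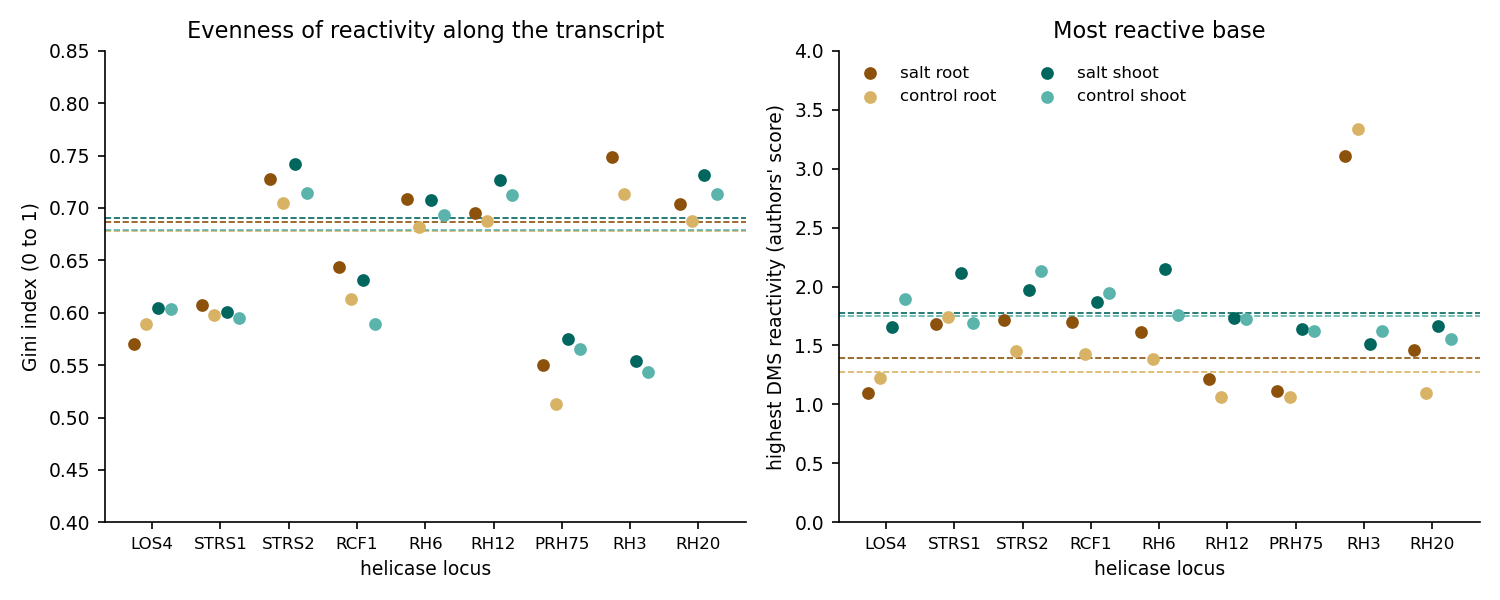
Gini index (left, fraction) and highest reactivity of any base (right, the authors' score) of the 9 helicase loci in 4 conditions, 1 deposited value per point, with dashed medians of all loci; the Gini axis starts at 0.4. RH3 has a Gini index of 0.749 and 0.714 in roots with and without salt against 0.727 and 0.704 for STRS2, the next highest, while its highest base of 3.108 and 3.334 stands apart from the other helicases in roots.

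With salt the tissues stood in the same relation. RH3 had a log2 ratio of root over shoot of 0.29 in salt-treated plants, 1.22 times its shoot value, and the other 8 helicases lay between -0.49 for RH12 and -0.22 for STRS1. Over all loci the median was -0.32, and 9.1% of loci lay above 0. Relative to that median RH3 was again more than 1.5-fold higher, against 2.82% of loci. No helicase was lower by 1.5-fold, against 9.51% of loci, and 3 (LOS4, RH12 and PRH75) had ratios of -0.32 or less, against 49.7% of loci. None had a ratio of 0.32 or more, against 2.13% of loci. The comparisons with and without salt share no library, but whether the authors scaled the conditions together is unknown.

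The family gives a measure of how RH3 stood among its relatives. A list of 46 further DEAD-box loci, grouped by known role, had 32 in the table. In control plants 27 of the 32 were less reactive in roots and 5 were more reactive, against 7.44% of all loci more reactive. The 5 all came from the group of organelle helicases. They were RH39, which acts on chloroplast ribosomal RNA, at a log2 ratio of 0.32, RH47 at 0.27, RH26 at 0.26, RH22, a chloroplast ribosome assembly factor, at 0.26, and RH50, another plastid helicase, at 0.20. Each of these lay above 96.1% of all loci or more, close to the 97.3% of RH3. The role groups were set with earlier results of these data known. The organelle group was picked out after its values were seen, so its share of the 5 is a description only. Salt-treated plants also had 5 of 32 above 0, against 9.1% of all loci, with RH47 highest at 0.36.

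Like RH3, these 5 were less evenly reactive in roots. Their Gini differences without salt were 0.159 for RH50, 0.143 for RH26, 0.127 for RH22, 0.116 for RH47 and 0.099 for RH39. RH39 had mean reactivities of 0.434 in salt-treated roots, 0.420 in control roots, 0.362 in salt-treated shoots and 0.337 in control shoots, and RH50 had 0.461, 0.407, 0.382 and 0.355 in the same order. The highest base of RH22 reached 3.86 in salt-treated roots and 3.547 in control roots, against 2.038 in salt-treated shoots and 2.055 in control shoots. The organelle group was not uniform. The mitochondrial helicases RH9 and RH53 had log2 ratios of -0.46 and -0.43, near the median of all loci, whereas RH47, earlier reported as a mitochondrial protein, stood with RH3. All 25 loci outside the organelle group lay below 0, from RH11 at -0.61 to RH10 at -0.18, as did 92.6% of all loci. STRS2 and RH26 are adjacent genes in the RefSeq annotation (TAIR10.1) and are similar in sequence. STRS2 had a mean reactivity of 0.188 in control roots and 0.245 in shoots without salt. RH26 had 0.407 in control roots and 0.341 in shoots without salt. Reads may have been shared between this pair too, which leaves their values uncertain.

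**Figure D3:**
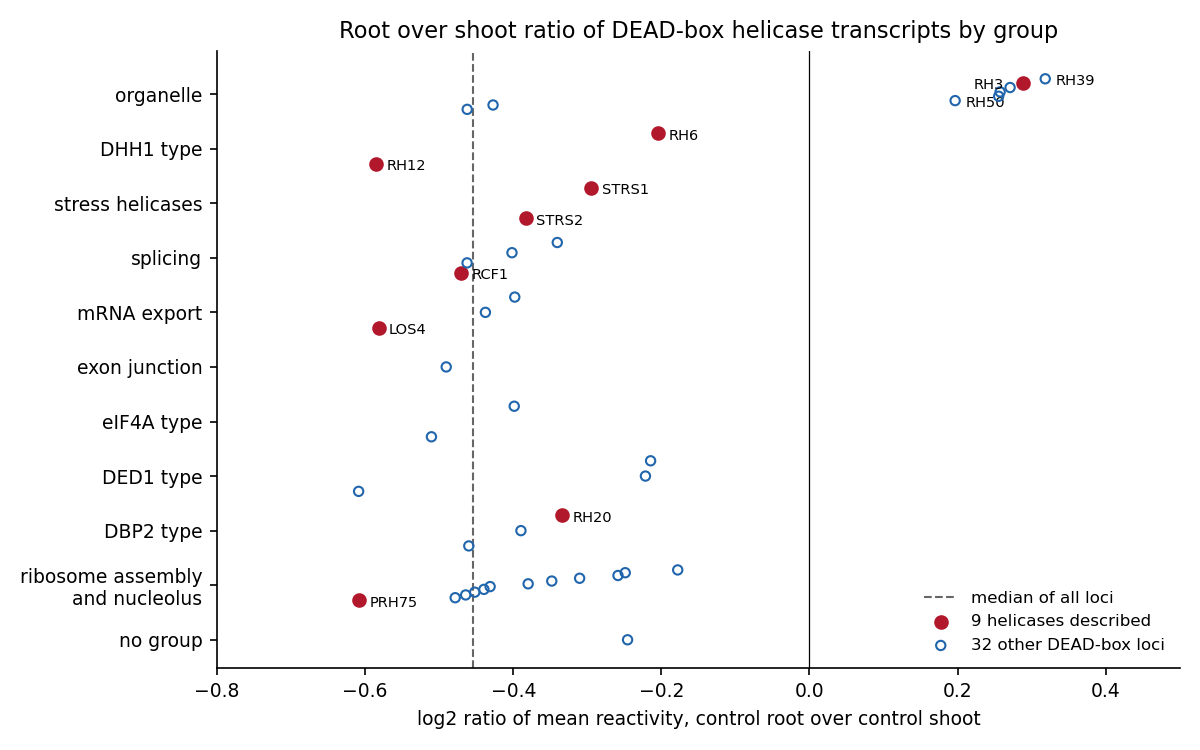
Log2 ratio of mean reactivity, control root over control shoot (horizontal axis), for 9 helicases (filled) and 32 other DEAD-box loci (open), in rows by known role; the dashed line is the median of all loci, -0.45. RH3 at 0.29 and 5 other loci of the organelle row lie above 0, and every other locus lies below. The organelle group was picked out after its values were seen.

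**Figure D4:**
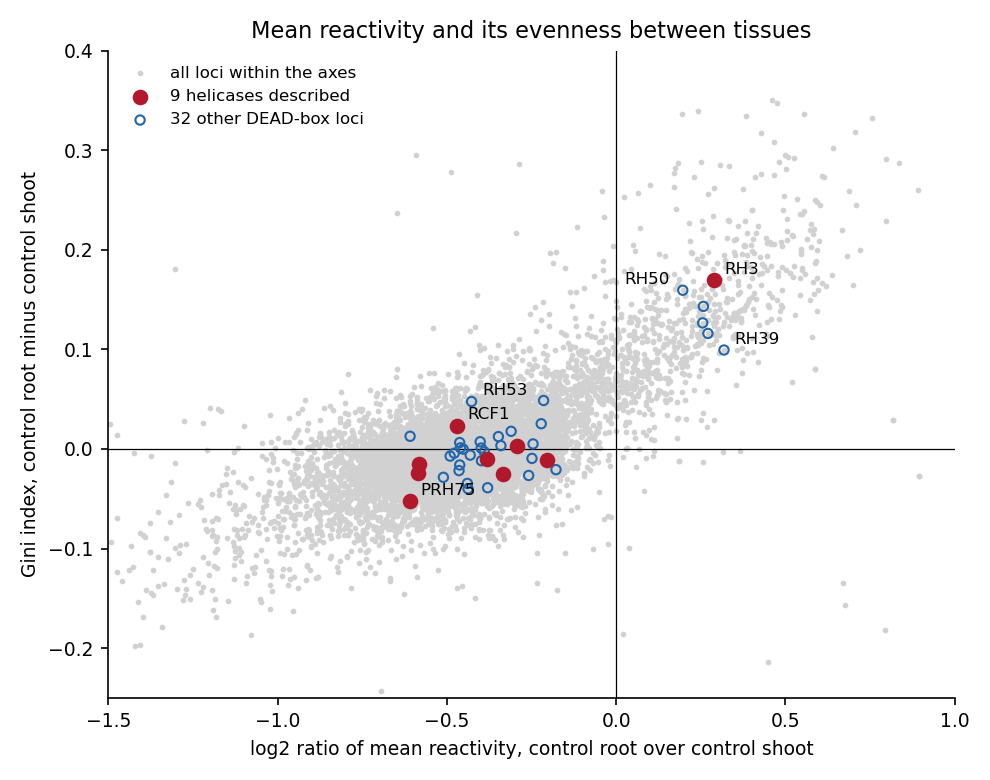
Difference of the Gini index, control root minus control shoot (vertical axis), against the log2 ratio of mean reactivity, control root over control shoot (horizontal axis), for all loci within the axes (grey), 32 other DEAD-box loci (open) and 9 helicases (filled). RH3, at 0.29 and 0.170, lies in the upper right arm of the cloud and the other 8 helicases in its main body.

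The salt comparison in roots sets the reactivity of each transcript after 48 h of NaCl against its control value. Of the 9 helicases 6 had a log2 ratio of salt over control above 0, against 80.1% of 8891 loci. RCF1 was highest at 0.17, followed by PRH75 at 0.12, STRS1 at 0.12, STRS2 at 0.11, RH12 at 0.07 and LOS4 at 0.03. RH20 at -0.01, RH6 at -0.04 and RH3 at -0.05 lay below 0. The median of the 9 was 0.07 and that of all loci 0.09, so LOS4 and RH12 also lay below the general level, and 4 of 9 lay above it. Only 10.2% of loci had a lower ratio than RH3 and 11.7% a lower ratio than RH6. No helicase reached 0.32 in either direction, which 2.51% of loci did upward and 1.06% downward.

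The Gini index in roots was higher with salt for 8 of the 9 helicases. PRH75 had a Gini index of 0.550 in salt-treated roots and 0.513 in control roots, a difference of 0.037 that exceeded 92.0% of loci. The differences were 0.035 for RH3, 0.031 for RCF1, 0.027 for RH6, 0.023 for STRS2, 0.016 for RH20, 0.0090 for STRS1 and 0.0070 for RH12. LOS4 went the other way, with 0.570 in salt-treated roots and 0.589 in control roots. Over all loci 66.1% had the higher Gini index with salt, as did 24 of the 32 other DEAD-box loci. The median difference was 0.023 for the 9, 0.0090 for the 32 and 0.0081 for all loci. Without replicate values it cannot be said whether the 9 differ beyond their spread. The most reactive base of RH20 was 1.461 in salt-treated roots and 1.1 in control roots, 1.33 times as high and the largest such ratio of the 9 in roots.

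In shoots 4 of 9 helicases had a log2 ratio of salt over control above 0, against 37.3% of 8956 loci, and all were small. STRS1 was highest at 0.04, followed by STRS2 at 0.02, RCF1 at 0.01 and RH6 at 0.01. LOS4 and PRH75 were lowest at -0.11 each, with RH20 at -0.07, RH3 at -0.05 and RH12 at -0.03. The median was -0.03 for the 9 and also -0.03 for all loci. LOS4 and PRH75 thus lay nearer the low end, with 24.6% and 24.9% of loci below them. None reached 0.32 in either direction, which 0.614% of loci did upward and 2.09% downward.

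The Gini index in shoots was higher with salt for all 9 helicases, against 73.4% of all loci and 29 of the 32 other DEAD-box loci. The median difference was 0.014 for the 9, 0.014 for the 32 and 0.013 for all loci. RCF1 had 0.631 in salt-treated shoots and 0.589 in control shoots, a difference of 0.041 that exceeded 88.7% of loci, while its mean stayed within 1.01 times the control value. STRS2 had 0.742 in salt-treated shoots and 0.714 in control shoots. The difference was under 0.02 for the other 7, down to 0.00059 for LOS4. The highest base was 2.118 with salt and 1.692 without in STRS1, and 2.147 with salt and 1.755 without in RH6, whereas in LOS4 it was 1.659 with salt and 1.892 without. A maximum rests on 1 base.

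**Figure D5:**
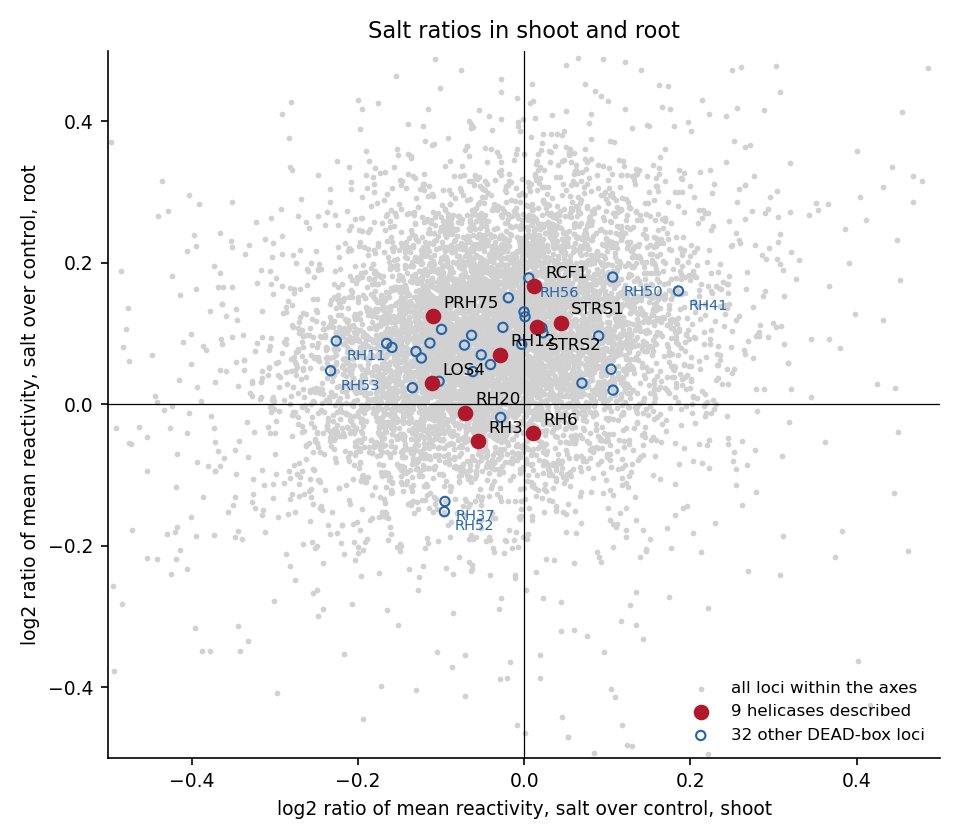
Log2 ratio of mean reactivity, salt over control, in roots (vertical axis) against shoots (horizontal axis), for 9 helicases (filled), 32 other DEAD-box loci (open) and all loci within the axes (grey). The helicases lie between -0.05 and 0.17 in roots and between -0.11 and 0.04 in shoots, inside the main body of the cloud.

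The tissue comparison of the salt ratios sets the ratio of each transcript in roots against its ratio in shoots. The root ratio minus the shoot ratio was above 0 for 8 of 9 helicases, against 82% of all loci, with a median of 0.09 for the 9 and 0.12 for all loci. PRH75 had the largest difference, 0.23, from 0.12 in roots and -0.11 in shoots. RCF1 differed by 0.15 and LOS4 by 0.14. RH6 was the exception at -0.05, and RH3 had the same small ratio in both tissues, with a difference of 0.0027. Relative to the median of all loci, PRH75, RCF1 and LOS4 lay above and the other 6 below. No difference reached 0.32, which 7.84% of loci passed upward and 1.28% downward.

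The loci RCF1, RH12 and RH3 had several isoforms, which share most of their sequence and reads and are not replicates. RH3 had 3, and all were more reactive in roots, with log2 ratios of control root over control shoot of 0.29, 0.26 and 0.27. Their mean reactivities in control roots ranged from 0.425 to 0.4375. Isoform 2 of RH12 had a log2 ratio of root over shoot of -0.64, which passes 1.5-fold, and isoform 1 had -0.58. The difference of 0.05 was larger than in 83.7% of the 2828 loci with several isoforms, whose median was 0.02. For RCF1 the isoforms stood at 0.17 and 0.19 for salt in roots and at 0.01 and 0.03 for salt in shoots.

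The deposited means also narrow down over how many bases they were taken, up to a multiple. The highest reactivities have 3 decimals, so a mean times the number of bases must be a whole number of thousandths. The smallest number that met this in all 4 conditions was 1320, 1373 and 1146 bases for isoforms 1, 2 and 3 of RH3, and 1138 and 1029 bases for isoforms 1 and 2 of RH12. The other helicase transcripts had 445 for STRS2, 856 for STRS1, 862 for LOS4, 874 for RH20, 1068 for PRH75, 1117 for RH6, and 2043 and 2045 for the isoforms of RCF1. The true number may be a multiple of these. Sums of squares rebuilt from the SDs were also whole for all 13 transcripts. By these smallest numbers the summed reactivity of RH3 isoform 1 came to 577.5 in control roots, against 472.8 in control shoots. Both sums would grow by the same factor if the true number is a multiple.

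Loci with the most similar values were sought by the Euclidean distance of log2 mean reactivities over the 4 conditions, among 8856 loci with at least 0.1 in each. The nearest locus to RH3 was PREP1 (AT3G19170) at a distance of 0.071, with 0.437 in salt-treated roots, 0.430 in control roots, 0.349 in salt-treated shoots and 0.348 in control shoots. Only 7 loci lay within 0.1 of RH3. The other 8 helicases had 38 to 166 loci within 0.1. The nearest to PRH75 was ROC7 at 0.027, to LOS4 HD1 at 0.033, to STRS2 CLUB at 0.019 and to RH12 DWA1 at 0.033. The nearest to RCF1 was AT4G25210 at 0.011, the smallest distance of the 9, to RH6 AT5G62910 at 0.020, to STRS1 AT5G40810 at 0.027 and to RH20 AT1G06900 at 0.034.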

How the data were processed

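The authors deposited 1 table with 1 value per transcript and condition. Per the file headers, its reactivity measures are a score (highest, mean and SD between bases) and a Gini index, a fraction. The normalization, coverage filter, bases counted, aligner and build were not given in the sources used here. The 24 libraries fall into 8 groups of tissue, salt and DMS with 3 replicates each, which the authors combined into 4 conditions.

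Log2 ratios of mean reactivity used no pseudocount and the lowest-numbered isoform per locus, and were kept where the average of the compared values was at least 0.1. Limits of size were 1.5-fold and a log2 ratio of 0.32. No test was possible with 1 value per condition. The listed genes, the family list and its role groups were chosen with earlier results of these data known. Named genes are all listed loci, the 2 highest and 2 lowest of the family list per comparison, the nearest locus of each helicase, the tissue markers and the helicases outside the family. The organelle group, STRS2's neighbour RH26, the salt ratios of EIF4A1 and EIF4A2, and RH10 were chosen after their values were seen. Base counts from 50 upward were tried until the mean times the count was whole in thousandths within 1e-05, and sums of squares within 0.05. This gave a count for all 12978 transcripts, and a whole sum of squares for 12901 (99.4%). Calculations used Python 3.11.15, numpy 2.4.6 and pandas 2.3.3 and were tested on simulated data. Alternatives were centring on the median, a pseudocount of 0.1, no minimum or 0.2, all isoforms, and limits of 0.32 (log2) and 2-fold. Leaving out RH3 was added after seeing the data.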

Additional observations from a re-analysis of the deposited data

Results flagged for a closer look

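For 4 helicases the salt ratio of mean reactivity lay on opposite sides of 0 in the tissues. With 1 value per tissue this difference was not tested. The difference of the log2 ratios, root minus shoot, was 0.23 for PRH75 (0.12 in roots, -0.11 in shoots), 0.14 for LOS4 (0.03 and -0.11), 0.10 for RH12 (0.07 and -0.03) and -0.053 for RH6 (-0.04 and 0.01). A ratio above 0 in roots and below 0 in shoots was found in 48.4% of 8891 loci, so for PRH75, LOS4 and RH12 the pattern was a common one. The share of loci with the reverse pattern of RH6 was not counted.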

How the results depend on the processing

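Medians and counts of the 9 helicases were recomputed under each alternative. Leaving out RH3, no minimum and a minimum of 0.2 moved no median by 0.1 or more and no count by more than 1.5 times. With ratios centred on the median of all loci, the helicase median moved to 0.071 for root over shoot without salt, to 0.030 for root over shoot with salt and to -0.030 for the root minus shoot difference of the salt ratios. Centring also put 1 helicase, RH3, above 1.5-fold in each comparison of root over shoot, and 0 below it without salt. A pseudocount of 0.1 gave a median of -0.26 and 0 helicases lower by 1.5-fold without salt. That last count was 2 with all isoforms, 6 at a log2 limit of 0.32 and 0 at 2-fold, and with salt it was 3 at 0.32. No value reversed among those past 1.5-fold. With the minimum of 0.2, RH12, RH20 and STRS2 gave no salt ratio in roots. No paired analysis was possible because the deposited table holds no replicate values, and leaving out a replicate was not possible for the same reason. The main limits are unknown depth, unknown normalization and unknown replicate spread.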

Other observations

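Beyond the listed helicases, the 32 other DEAD-box loci also had salt ratios within 0.32 of 0 (log2) in both tissues, as did all but 2.51% (upward) and 1.06% (downward) of loci in roots and all but 0.614% and 2.09% in shoots. In salt-treated roots RH50 (0.18) and RH56 (0.18), a UAP56-type mRNA export factor, had the highest log2 ratios. RH52 at -0.15 and RH37 at -0.14, which belong to the DED1 type of translation initiation helicases, had the lowest, while RH11 of the same type stood at 0.09. In salt-treated shoots RH41 was highest at 0.19 and RH22 next at 0.11. The mitochondrial helicase RH53 at -0.23 and RH11 at -0.23 were lowest. RH11 also had the largest difference of the salt ratio between roots and shoots in the family, 0.32, followed by RH53 at 0.28, and RH22 at -0.09 and RH52 at -0.06 had the smallest. Between tissues with salt, the lowest log2 ratios of root over shoot among these 32 loci were those of RH18 (-0.52) and RH2 (-0.37), and the highest those of RH47 (0.36) and RH50 (0.27). Without salt RH11 and EIF4A1 were the lowest of the 32, at -0.61 and -0.51.

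The translation initiation factors EIF4A1 and EIF4A2 had salt ratios of 0.09 and 0.07 in roots and of -0.11 and -0.12 in shoots. Of 7 RNA helicases outside the DEAD-box family 6 were in the table, all less reactive in control roots than in control shoots, with a median log2 ratio of -0.43. Of all loci, 92.6% were less reactive there, with a median of -0.45. Among them UPF1, the nonsense-mediated decay helicase, had the lowest salt ratio in roots, -0.09.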
